A study of Mus musculus with 50 samples.

Results

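SMAD proteins carry the signals of the TGF-beta, activin and BMP ligands from receptors at the cell surface to the nucleus. The family was taken as the 8 genes Smad1, Smad2, Smad3, Smad4, Smad5, Smad6, Smad7 and Smad9, chosen by gene symbol among the 16614 gene rows of a count table of single mouse oocytes. Rows were used for 6 of the 8: the receptor-regulated genes of the BMP branch (Smad1, Smad5 and Smad9), those of the activin and TGF-beta branch (Smad2 and Smad3), and the common partner Smad4. The inhibitory members Smad6 and Smad7 are not analysed here. All 6 passed the filter on low counts in the test between genotypes.

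The study set Zfp36l2 knockout oocytes (labelled cKO-Zfp36l2, read here as conditional knockout) against floxed oocytes (labelled F/F-). The labels and notes name no Cre driver, so the cells and age at which the gene was lost are not known here. ZFP36L2 is a zinc finger protein that binds AU-rich elements in the 3′ untranslated region (UTR) of mRNAs and promotes their decay. Females 5 weeks old received 10 IU of PMSG, a gonadotropin that makes follicles grow. Fully grown oocytes at the germinal vesicle stage, still arrested in prophase of meiosis, were isolated 46 hours later from their cumulus cells and zona pellucida. Poly(A)-primed full-length cDNA was made from each oocyte separately. The data hold 24 knockout oocytes, from 4 mice that gave 1, 7, 8 and 8, and 26 floxed oocytes, from 4 mice that gave 5, 7, 7 and 7. The mouse was the replicate, and oocytes of 1 mouse were summed before any test.

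An activated type I receptor phosphorylates receptor-regulated SMADs, which join SMAD4 and enter the nucleus to switch target genes on or off. BMP receptors act mainly on SMAD1, SMAD5 and SMAD9 (also called SMAD8), and activin, TGF-beta and GDF9 receptors act on SMAD2 and SMAD3. In the ovary the oocyte secretes GDF9 and BMP15, whose best described actions are on the SMADs of the surrounding granulosa cells. The libraries here were made from the sending cell, the oocyte, and the part of other cells in their reads was not tested.

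Every level is a share of the library, in counts per 1000000 (CPM), and cannot show whether an oocyte held more or less mRNA in all. Libraries held 1746007 to 6233840 counts per oocyte and 4332108 to 44498770 per mouse. The smallest mouse sum was that of knockout mouse 1, which is a single oocyte. The row of the targeted gene, Zfp36l2, averaged 2.00 ± 0.81 CPM in knockout mice and 3.27 ± 0.93 CPM in floxed mice (SD, n = 4 each; log2 difference −0.78, SE 0.43, adjusted p = 0.208 in edgeR's quasi-likelihood test). That row does not separate the deleted part of the gene from the rest, so it checks neither label. Summed over 14 oocyte markers, the CPM ran from 5461 to 6366 in knockout mice and from 5442 to 6690 in floxed mice. Of 12 granulosa and cumulus cell markers, 10 had rows and 0 passed edgeR's test, with 2 of them, Inha and Kitl, at an unadjusted p under 0.05 and 1 called by DESeq2. Mouse numbers do not say whether animals shared a litter or a day, and p-values measure the spread between these 8 mouse sums.

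Each of the 3 genes that passed the test below has AU-rich letters of the kind that ZFP36 proteins bind in its annotated 3′ UTR, and these are printed because the deleted protein belongs to that family. The core motif searched was ATTTA, and the longer form was TATTTAT or TATTTAA, in which the core is contained. Both were read on the transcript strand of GENCODE M21 on GRCm38 (mm10), where T stands for the U of the mRNA. For each of Smad9, Smad5 and Smad3, 2 copies of the longer form are shown 5′ to 3′ with the motif in capitals.
Smad9 site 1, chr3:54798485-54798514, + strand: tctttggatctTATTTATgcatctctcagc
Smad9 site 2, chr3:54800358-54800387, + strand: tttcatgtatgTATTTAAtaaagtaaaata
Smad5 site 1, chr13:56739085-56739114, + strand: ttctgtgccatTATTTATtgcctttcagag
Smad5 site 2, chr13:56741410-56741439, + strand: aaggataacagTATTTAAtagtgtctgtca
Smad3 site 1, chr9:63647333-63647362, − strand: tgccgctttcgTATTTATgtaacaattcct
Smad3 site 2, chr9:63647292-63647321, − strand: aaatggctaacTATTTAAtttctttaggac

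These letters did not set the 3 genes apart within the family. ATTTA occurred 8 times in the 3756 bases of the Smad9 3′ UTR, 6 times in the 4899 bases of Smad5 and 4 times in the 3495 bases of Smad3. The longer form occurred 2 times in Smad9, 2 times in Smad5 and 3 times in Smad3. Smad2, which did not pass the test, held 17 copies in 6233 bases and 3 copies of the longer form. Smad4 held 2 copies in 1249 bases and 1 of the longer form. Smad1 held 0 copies of either form in 1254 bases. Long 3′ UTRs nearly always hold the core: it was present in 98.1% of 1247 genes with a 3′ UTR within 1.25 times the length of that of Smad9, and in 81.6% of 2115 genes of a length like that of Smad1. The longer form was present in 77.4% of the genes like Smad9 and 44.8% of those like Smad1, and in 39.7% of all 13810 3′ UTRs. A match is a run of letters, and binding was not measured.

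Of the 6 tested members, 3 were higher in knockout oocytes: Smad9 and Smad5 of the BMP branch and Smad3 of the activin branch. Of the others, 0 were lower and 3 did not pass. The calls are those of edgeR's quasi-likelihood test with Benjamini-Hochberg adjustment over all 15029 genes tested. Over those genes, 14.4% were called higher, 13.2% lower and 27.6% in either direction. The count of 0 lower members was also 0 at an unadjusted p under 0.05, in DESeq2 and in limma. In 2 of 14 alternative settings, both without knockout mouse 1, Smad1 was called lower. In 4 members every knockout mouse lay above every floxed mouse, a separation that 16.0% of all genes showed, and the reverse separation, shown by 15.0% of genes, occurred in 0 members. The median log2 fold change of all genes was −0.01.

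**Figure D1:**
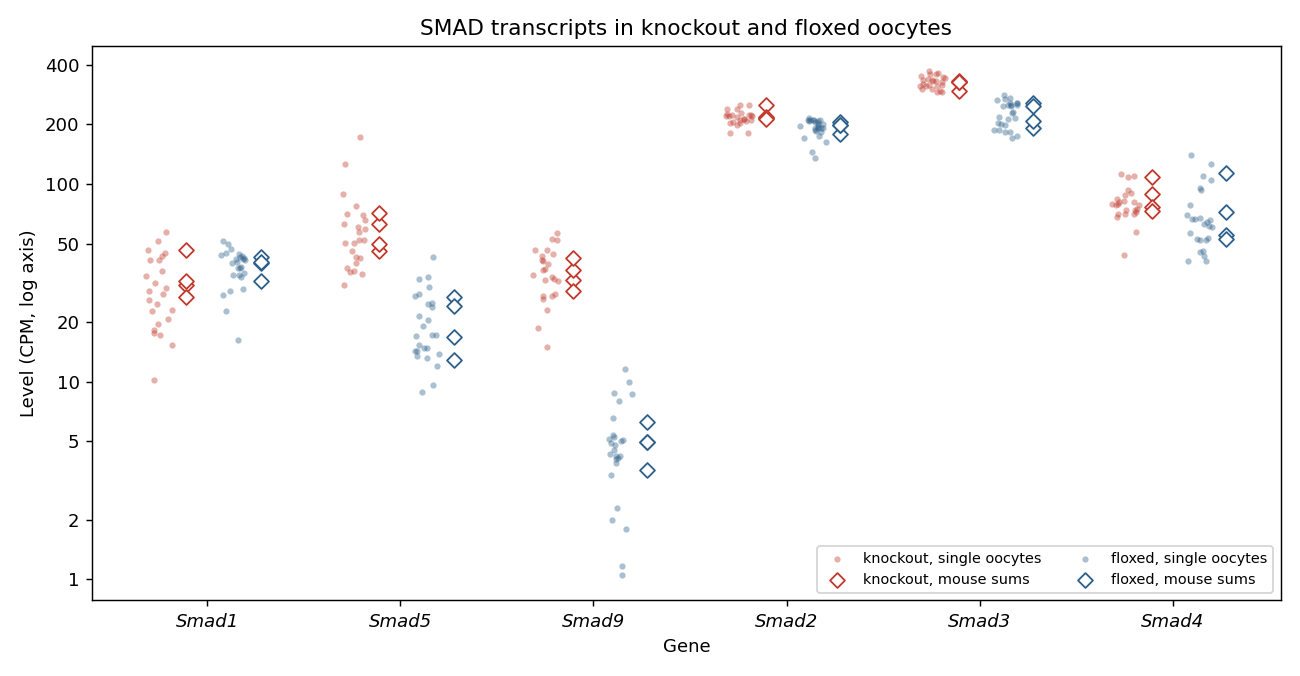
CPM of the 6 SMAD genes on a log axis, with knockout left of floxed for each gene, small points for single oocytes and diamonds for the sums of each mouse. Knockout mice lie above all floxed mice for Smad9, Smad5, Smad3 and Smad2, and the groups overlap for Smad1 and Smad4.

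Smad9 (chr3:54755582-54801257, + strand, mm10), which encodes a BMP-branch signal transducer also known as SMAD8, had the widest separation of the family. It stood at 32.8, 28.9, 36.8 and 42.4 CPM in knockout mice 1 to 4, against 6.26, 3.59, 4.93 and 4.96 CPM in floxed mice 1 to 4. The lowest knockout mouse was more than 4 times the highest floxed mouse. The mean was 35.2 ± 5.79 CPM in knockout and 4.94 ± 1.09 CPM in floxed mice (SD, n = 4 each), 6.96-fold higher in knockout oocytes (95% interval 4.85 to 9.99; log2 2.80, SE 0.23; edgeR adjusted p = 0.000191). By the size of the log2 fold change, 3.64% of all tested genes had a larger one in either direction. Among single oocytes, Smad9 ran from 15.1 to 56.4 CPM with a median of 35.7 in knockout oocytes, and from 1.05 to 11.5 CPM with a median of 4.66 in floxed oocytes. All 24 knockout oocytes lay above all 26 floxed oocytes. The share of all genes that separate so by oocyte was not computed, here or for the members below. Oocytes of 1 mouse are not replicates of a genotype. The lowest Smad9 count in any oocyte was 69 reads in knockout and 2 reads in floxed oocytes, so the gene was counted in every oocyte of both genotypes.

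Smad5 (chr13:56703010-56742377, + strand, mm10), the BMP-branch member whose loss in mice is known to stop development in mid-gestation, was higher by a smaller factor. Knockout mice 1 to 4 had 45.7, 62.4, 71.2 and 49.8 CPM, against 16.9, 12.8, 26.7 and 24.2 CPM in floxed mice. All 4 knockout mice were above the highest floxed mouse. The mean was 57.3 ± 11.7 CPM in knockout and 20.1 ± 6.42 CPM in floxed mice, 2.76-fold higher in knockout oocytes (95% interval 1.84 to 4.15; log2 1.47, SE 0.26; edgeR adjusted p = 0.00367). Single knockout oocytes ran from 30.7 to 173.5 CPM with a median of 52.1, and floxed oocytes from 8.90 to 42.9 CPM with a median of 17.2. Of the 24 knockout oocytes, 16 lay above the highest floxed one.

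Smad1 (chr8:79338395-79399518, − strand, mm10), the third receptor-regulated member of the BMP branch, did not pass the test. It had 46.2, 30.9, 26.9 and 32.3 CPM in knockout mice, against 40.0, 32.4, 42.9 and 40.2 CPM in floxed mice. Knockout mouse 1, a single oocyte, was the highest of all 8, and the groups overlapped through it. The log2 difference was −0.23 with a 95% interval of −0.68 to 0.21 (edgeR adjusted p = 0.413). Without knockout mouse 1 it was −0.45 (adjusted p = 0.0448), and without mouse 1 of both genotypes −0.44 (adjusted p = 0.0419), so whether it is called depends on that mouse.

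Smad3 (chr9:63646767-63757994, − strand, mm10), the DNA-binding transducer of the activin branch, was the most abundant SMAD per kilobase in both genotypes and the third that passed. It had 296.2, 328.8, 333.0 and 327.4 CPM in knockout mice, against 192.1, 207.4, 258.4 and 248.9 CPM in floxed mice. The lowest knockout mouse was above the highest floxed one. The mean was 321.4 ± 17.0 CPM in knockout and 226.7 ± 32.0 CPM in floxed mice, 1.38-fold higher in knockout oocytes (95% interval 1.16 to 1.64; log2 0.46, SE 0.11; edgeR adjusted p = 0.0136). Single oocytes separated fully: knockout oocytes had 291.2 to 372.4 CPM (median 330.0), and floxed oocytes 170.5 to 283.3 CPM (median 230.7).

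Smad2 (chr18:76241580-76310963, + strand, mm10), the other activin-branch transducer, separated by mouse without passing the test. Knockout mice had 250.9, 216.4, 219.4 and 212.0 CPM, against 205.3, 179.1, 199.5 and 197.7 CPM in floxed mice. The gap between the groups was smaller than the spread within either of them. The log2 difference was 0.16 with a 95% interval of −0.02 to 0.35 (edgeR adjusted p = 0.177). Of the 24 knockout oocytes, 13 were above the highest floxed one, 214.9 CPM.

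Smad4 (chr18:73639009-73703780, − strand, mm10), the partner shared by both branches, had 108.7, 89.1, 76.4 and 73.0 CPM in knockout mice, against 113.8, 71.8, 55.3 and 52.6 CPM in floxed mice. Mouse 1 was the highest in each genotype, and the groups overlapped. The log2 difference was 0.21 with a 95% interval of −0.33 to 0.75 (edgeR adjusted p = 0.558). None of the knockout oocytes lay above the highest floxed oocyte, 140.9 CPM.

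**Figure D2:**
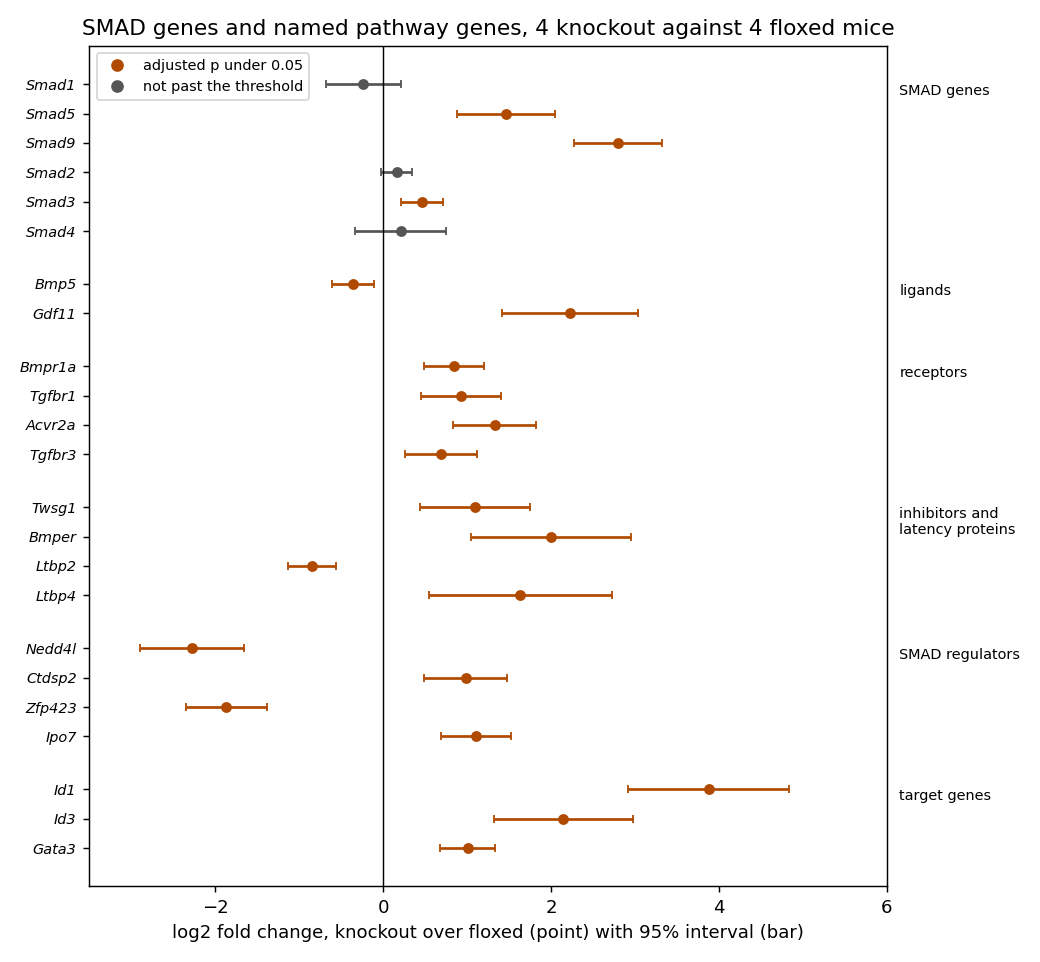
Log2 fold change of knockout over floxed for the SMAD genes and the called pathway genes named in the text, with 95% intervals from edgeR on mouse sums. Positive values are higher in knockout oocytes, and Smad9 has the largest positive value among the 6 SMAD genes.

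Genes of different length were set side by side only as CPM per kilobase of the transcript behind each row. Smad3 came first in both genotypes, at 63.1 ± 3.33 in knockout and 44.5 ± 6.28 in floxed mice. Smad2 followed at 27.8 ± 2.20 in knockout and 24.2 ± 1.40 in floxed mice, and Smad4 at 25.7 ± 4.78 in knockout and 21.7 ± 8.35 in floxed mice, levels that did not differ from each other beyond their spread. The BMP branch lay lower: Smad1 had 11.0 ± 2.70 in knockout and 12.5 ± 1.45 in floxed mice, Smad5 8.70 ± 1.77 in knockout and 3.06 ± 0.98 in floxed mice, and Smad9 6.56 ± 1.08 in knockout and 0.919 ± 0.203 in floxed mice. In floxed mice the order Smad1, Smad5, Smad9 was wider than the spread at each step. In knockout mice the ranges of Smad1 and Smad5 overlapped, and so did those of Smad5 and Smad9. Among 16536 gene rows with a length, Smad9 stood at percentile 48.8 in knockout and 27.1 in floxed mice. Smad3 stood at percentile 89.0 in knockout and 83.0 in floxed mice.

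The make-up of the BMP branch followed from these levels. Smad1 made up 53.3, 40.2, 33.0 and 40.2% of the summed CPM per kilobase of Smad1, Smad5 and Smad9 in knockout mice, against 77.6, 80.0, 73.6 and 73.8% in floxed mice. Every knockout mouse was below every floxed mouse. Smad5 made up 33.3 ± 7.56% in knockout and 18.2 ± 3.53% in floxed mice, and Smad9 25.0 ± 4.19% in knockout and 5.57 ± 0.98% in floxed mice (SD, n = 4 each). Smad1 was the most abundant of the 3 in 10 of 24 knockout oocytes and in 26 of 26 floxed oocytes. In the other 14 knockout oocytes, Smad5 led in 9 and Smad9 in 5. The BMP branch as a whole held 18.4 ± 0.639% of the summed CPM per kilobase of the 6 genes in knockout and 15.4 ± 1.65% in floxed mice. These shares are computed from the levels above and carry no test of their own.

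**Figure D3:**
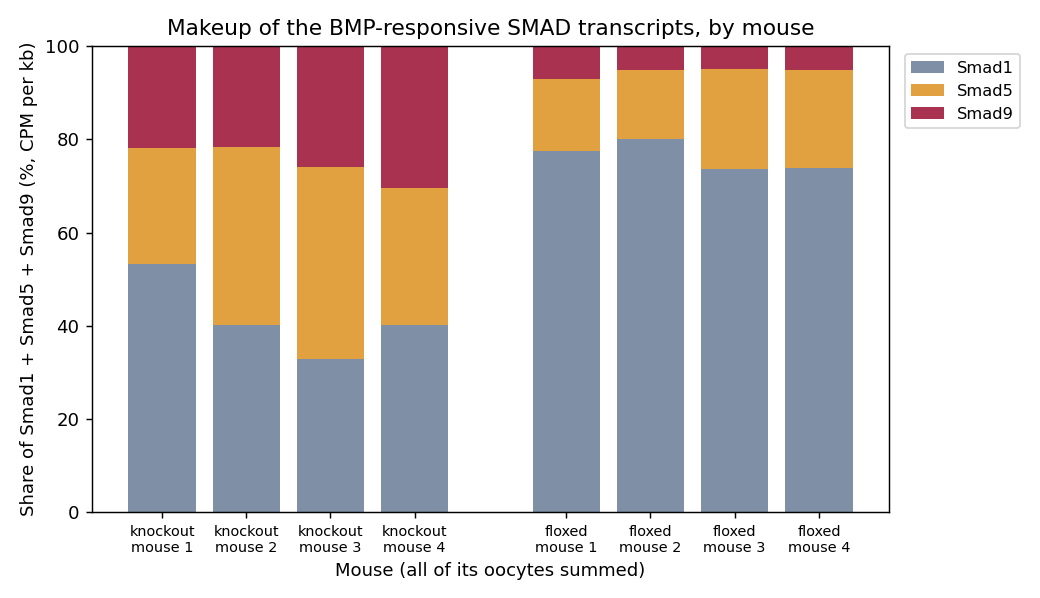
Percent of the summed CPM per kilobase of Smad1, Smad5 and Smad9 that each contributes, per mouse, with knockout mice left of floxed mice. Smad1 holds 33.0 to 53.3% in knockout mice and 73.6 to 80.0% in floxed mice.

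Single oocytes of a mouse varied to different degrees from gene to gene. The spread was taken as the SD of log2(CPM + 1) over the oocytes of a mouse, in the 3 knockout and 4 floxed mice with more than 1 oocyte. For Smad1 it was 0.589, 0.649 and 0.575 in knockout mice, against 0.132, 0.457, 0.143 and 0.274 in floxed mice. The groups did not overlap, and the share of all genes that separate so in their spread was not computed. An exact two-sided permutation test of the mice gave p = 0.0571, the smallest p that the 35 arrangements allow. With Benjamini-Hochberg adjustment over the 6 members, that permutation p was 0.343. No gene could reach 0.05 in this design, and the separation in Smad1 is a description. For Smad5 the spread averaged 0.552 in knockout and 0.359 in floxed mice (exact permutation p = 0.286), and for Smad9 0.397 in knockout and 0.626 in floxed mice (exact permutation p = 0.171). Smad2 and Smad3 varied little within mice, with averages of 0.114 and 0.115 over the 7 mice. The exact permutation p was 0.8 for Smad2, 0.4 for Smad3 and 0.629 for Smad4, and 6 genes were compared in all. For genes of a similar level the median was 0.166 beside Smad2 and 0.150 beside Smad3. The other members averaged close to their medians over the 7 mice. Smad1 had 0.403 beside 0.406, Smad5 0.441 beside 0.394, Smad9 0.528 beside 0.546 and Smad4 0.255 beside 0.272. Counting error is larger for low genes, and the number of reads per oocyte differs.

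**Figure D4:**
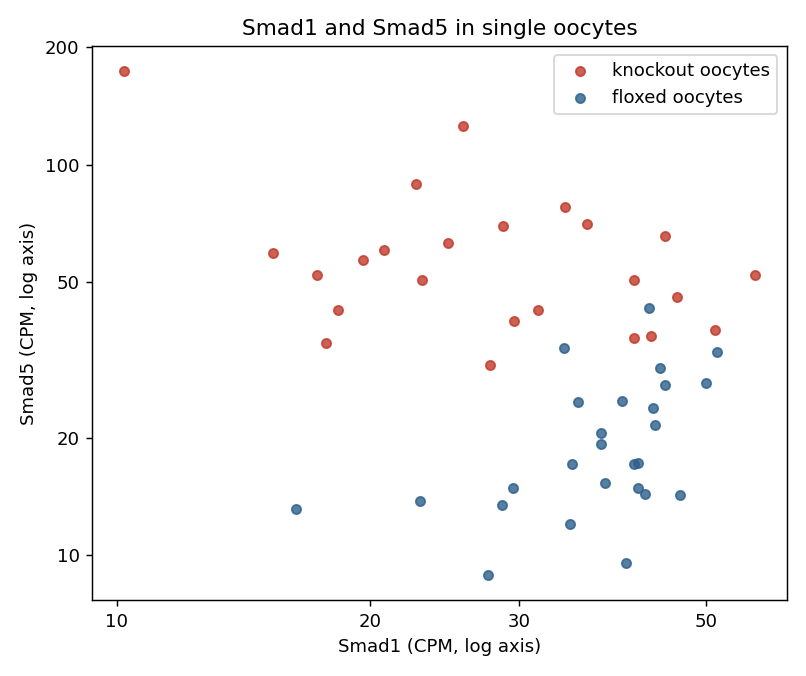
Smad5 against Smad1 in single oocytes, as CPM on log axes, with knockout and floxed oocytes marked apart. Knockout oocytes spread from 10.2 to 57.2 CPM of Smad1 with a Smad5 median of 52.1 CPM, and floxed oocytes run from 16.3 to 51.6 CPM of Smad1 with a Smad5 median of 17.2 CPM.

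One oocyte of knockout mouse 3 joined the highest Smad5 of the data, 173.5 CPM, with the lowest Smad1, 10.2 CPM. It was singled out after its values were seen. Across all 50 oocytes, the Pearson r of log2(CPM + 1) between Smad5 and Smad9 was 0.74, between Smad5 and Smad3 0.82, and between Smad9 and Smad3 0.77. After each mouse's mean was removed, leaving the 49 oocytes of 7 mice, the same values were −0.08, 0.09 and −0.13. Over the 15 pairs of members the within-mouse values ran from −0.24 to 0.34. These oocytes share mice and genotypes, and the values are a description.

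The genes most like each member in their pattern over the 50 oocytes were, by Pearson r, Agtr1a (0.915) and Cuedc1 (0.914) for Smad9, Zfp292 (0.871) for Smad5, and Ctnnd1 (0.931) and Stag1 (0.918) for Smad3. For Smad2 they were Khdrbs1 (0.843) and Azi2 (0.816), for Smad4 Psmd5 (0.841) and Gabpb1 (0.833), and for Smad1 Slc20a1 (0.695) and Myo1d (0.652). The r holds the difference between genotypes as well as the spread within them.

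The other genes of the pathway were taken from 5 lists of ligands, receptors, inhibitors, SMAD regulators and target genes, 130 genes in all. Rows were used for 101 of them, and 88 were tested. Of these, 18 were higher in knockout oocytes, 8 were lower and 62 did not pass, so 29.5% were called, beside 27.6% of all tested genes. The share was near the background. Over all tested genes 14.4% were higher and 13.2% lower, and these shares stand beside the counts of each list below. Without knockout mouse 2 the count of higher genes was 10, without knockout mouse 3, floxed mouse 2 or floxed mouse 4 it was 11, and without floxed mouse 3 or 4 the count of lower genes was 5, against 15 without floxed mouse 1. Over all alternatives the lists gave 10 to 22 higher and 5 to 17 lower genes. The median log2 fold change was 0.12, against −0.01 over all genes.

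Among the ligands, 1 of 15 tested genes was higher, 1 lower and 13 did not pass, with a median log2 fold change of 0.02. Leaving out knockout mouse 1 or floxed mouse 1 gave 2 higher ligands, and leaving out both gave 3. The alternatives gave 0 to 1 lower. Gdf11, an activin-type ligand, averaged 3.55 ± 0.41 CPM in knockout and 0.745 ± 0.139 CPM in floxed mice (4.67-fold, edgeR adjusted p = 0.00251). Gdf11 was counted in 24 of 24 knockout and 17 of 26 floxed oocytes, with a floxed median of 3 reads. Bmp5 averaged 91.5 ± 8.51 CPM in knockout and 114.6 ± 10.1 CPM in floxed mice (log2 −0.36, edgeR adjusted p = 0.0389), a call lost without any 1 of knockout mice 2 and 3 or floxed mice 2, 3 and 4 and in limma (adjusted p 0.0530 to 0.115). The major oocyte ligands did not pass: Gdf9 averaged 596.0 CPM in knockout and 643.0 CPM in floxed mice (log2 −0.15, adjusted p = 0.330), and Bmp15 739.1 CPM in knockout and 790.1 CPM in floxed mice (log2 −0.13, adjusted p = 0.165).

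Among the receptors, 4 of 13 tested genes were higher, 0 lower and 9 did not pass, with a median log2 fold change of 0.35. At an unadjusted p under 0.05 there was 1 lower gene, and DESeq2 and limma each called 1. Of lower receptors there were 2 without floxed mouse 1, without mouse 1 of both genotypes or with the mouse number as a block, and 1 without knockout mouse 1 or 2. The alternatives gave 3 to 4 higher. Acvr2a, the activin type II receptor, had 30.7, 54.8, 44.6 and 34.8 CPM in knockout mice, against 19.9, 15.7, 14.3 and 14.3 CPM in floxed mice. Every knockout mouse lay above every floxed one, as in 16.0% of all genes, and Acvr2a was 2.51-fold higher (edgeR adjusted p = 0.00280). Bmpr1a, a BMP type I receptor, averaged 147.7 ± 23.5 CPM in knockout and 79.9 ± 13.4 CPM in floxed mice (1.80-fold, adjusted p = 0.00468). Tgfbr1, the TGF-beta type I receptor, averaged 46.1 ± 4.63 CPM in knockout and 23.7 ± 6.03 CPM in floxed mice (1.90-fold, adjusted p = 0.0116). Tgfbr3, the co-receptor betaglycan, averaged 134.6 ± 23.9 CPM in knockout and 81.5 ± 19.3 CPM in floxed mice (1.61-fold, adjusted p = 0.0260), a call lost without any 1 of knockout mice 2, 3 and 4 or floxed mice 2 and 4 (adjusted p 0.0531 to 0.0747). Acvr1, Bmpr1b and Bmpr2, all BMP receptors, were chosen after their values were seen. Acvr1, the receptor of that unadjusted p, averaged 8.60 ± 5.07 CPM in knockout and 19.9 ± 6.92 CPM in floxed mice (log2 −1.22, adjusted p = 0.0669). Bmpr1b averaged 328.8 CPM in knockout and 337.0 CPM in floxed mice, and Bmpr2 219.2 CPM in knockout and 259.2 CPM in floxed mice, neither past the test.

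Among the extracellular inhibitors and binding proteins, 3 of 13 were higher, 1 lower and 9 did not pass, and their median log2 fold change was 0.46. The alternatives gave 1 to 4 higher and 1 to 2 lower, with 1 higher without knockout mouse 2 or 3 or floxed mouse 2 or 4, and 2 lower without knockout mouse 4. Bmper, which binds BMPs outside the cell, averaged 6.37 ± 3.25 CPM in knockout and 1.51 ± 0.33 CPM in floxed mice (4.01-fold, edgeR adjusted p = 0.00802). Bmper was counted in 23 of 24 knockout and 23 of 26 floxed oocytes, with a floxed median of 4 reads. Twsg1, which modulates chordin, averaged 25.6 ± 5.95 CPM in knockout and 11.8 ± 4.47 CPM in floxed mice (2.13-fold, adjusted p = 0.0222). Ltbp4, a latent TGF-beta binding protein, averaged 2.61 ± 0.217 CPM in knockout and 0.819 ± 0.433 CPM in floxed mice (3.11-fold, adjusted p = 0.0332). Ltbp4 was counted in 22 of 24 knockout and 16 of 26 floxed oocytes, with a floxed median of 2 reads. The Twsg1 call was lost without any 1 of knockout mice 2 and 3 or floxed mice 2, 3 and 4 (adjusted p 0.0589 to 0.0842). The Ltbp4 call was lost without any 1 of knockout mice 2, 3 and 4 or floxed mice 2 and 4 (adjusted p 0.0730 to 0.0895). Ltbp2 fell to 49.7 ± 4.34 CPM in knockout mice, against 87.0 ± 8.84 CPM in floxed mice (log2 −0.85, adjusted p = 0.00178).

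The SMAD regulators, which modify, anchor or move the SMADs, gave 7 higher, 6 lower and 23 that did not pass of 36 tested, and their median log2 fold change was 0.07. The alternatives gave 2 to 9 higher and 4 to 12 lower. Nedd4l, a ubiquitin ligase known to act on activated SMAD2 and SMAD3, fell to 36.4 ± 15.9 CPM in knockout mice, against 173.5 ± 33.7 CPM in floxed mice (log2 −2.28, edgeR adjusted p = 0.000735). Zfp423, a nuclear partner of BMP SMADs, fell to 7.35 ± 1.37 CPM in knockout mice, against 25.9 ± 2.77 CPM in floxed mice (log2 −1.87, adjusted p = 0.000578). Ipo7, an importin that carries SMADs into the nucleus, averaged 36.3 ± 5.32 CPM in knockout and 16.5 ± 2.09 CPM in floxed mice (2.15-fold, adjusted p = 0.00286). Ctdsp2, a phosphatase that acts on the SMAD linker, averaged 41.4 ± 10.7 CPM in knockout and 20.3 ± 3.65 CPM in floxed mice (1.98-fold, adjusted p = 0.0105).

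Of the 11 target genes tested, 3 were higher, 0 lower and 8 did not pass, with a median log2 fold change of 0.22. DESeq2, limma and an unadjusted p under 0.05 also gave 0 lower. Id1, a BMP target that blocks helix-loop-helix transcription factors, had 7.16, 6.57, 5.93 and 7.46 CPM in knockout mice, against 0.351, 0.776, 0.261 and 0.403 CPM in floxed mice. It was counted in 23 of 24 knockout oocytes and in 13 of 26 floxed oocytes, with a floxed median of 0.5 reads. Such detection counts were not brought to an equal depth, here or for Gdf11, Bmper and Ltbp4. Id1 was 14.7-fold higher in knockout mice (95% interval 7.56 to 28.6, log2 3.88, edgeR adjusted p = 0.000459). In limma on the mean over oocytes of log2(CPM + 1), the log2 difference was 2.30 (adjusted p = 0.000177). Id3, a related BMP target, had 85.2, 55.1, 43.7 and 45.0 CPM in knockout mice, against 21.8, 13.0, 7.51 and 8.43 CPM in floxed mice (4.42-fold, adjusted p = 0.00320). Gata3 averaged 144.1 ± 9.14 CPM in knockout and 69.9 ± 13.0 CPM in floxed mice (2.01-fold, adjusted p = 0.00146). In each of the 3 genes every knockout mouse lay above every floxed mouse, as in 16.0% of all genes. Many other genes differed between the groups, and the link from SMAD levels to targets was not tested.

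**Figure D5:**
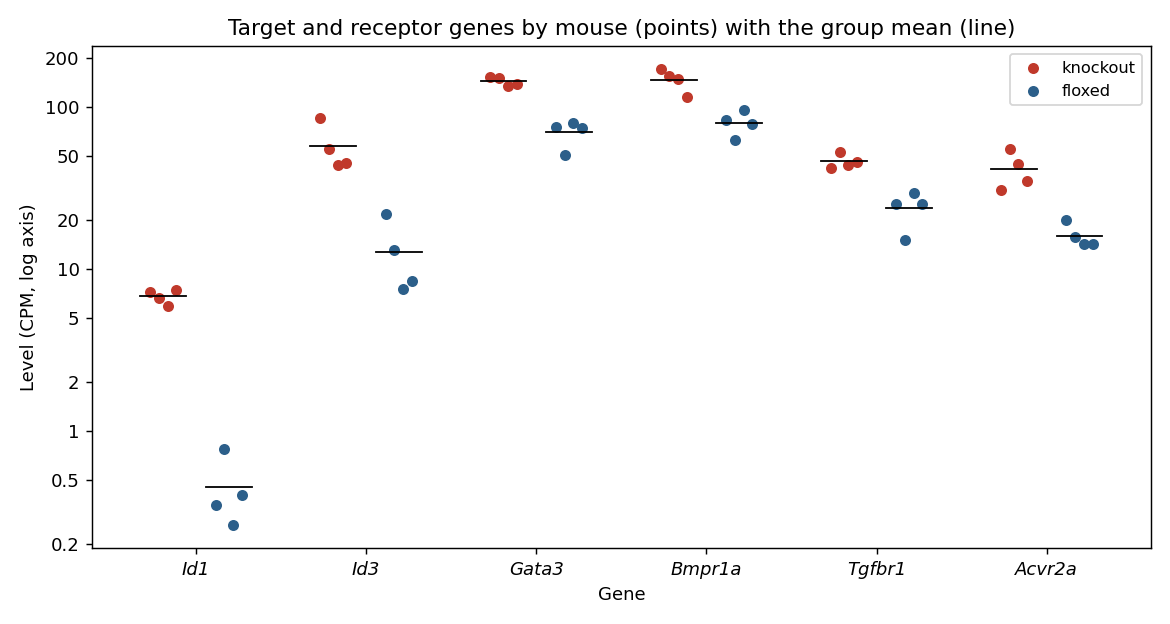
CPM on a log axis of 3 target genes and 3 receptors, with a point for each mouse, a line at the group mean, and knockout mice left of floxed mice. The 4 knockout mice lie above all 4 floxed mice for Id1, Id3, Gata3, Bmpr1a, Tgfbr1 and Acvr2a. The other called receptor, Tgfbr3, is not drawn, and its groups overlap.

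Markers of other cell types were read beside these results. Summed over the 10 granulosa and cumulus markers, the CPM ran from 163.0 to 291.1 in knockout mice and from 160.3 to 228.3 in floxed mice. Inha, the inhibin alpha chain, averaged 35.6 ± 15.7 CPM in knockout and 18.8 ± 6.17 CPM in floxed mice, and Kitl, the KIT ligand, 40.0 ± 18.2 CPM in knockout and 21.3 ± 4.52 CPM in floxed mice, and neither passed the test. Cyp19a1, the aromatase gene, averaged 78.8 CPM in knockout and 82.8 CPM in floxed mice, and Nr5a2 44.1 CPM in knockout and 49.9 CPM in floxed mice. Hsd17b1 averaged 10.2 CPM in knockout and 5.06 CPM in floxed mice, Inhba 8.77 CPM in knockout and 8.18 CPM in floxed mice, Fshr 4.00 CPM in knockout and 5.13 CPM in floxed mice, Has2 3.88 CPM in knockout and 2.94 CPM in floxed mice, and Amhr2 2.24 CPM in knockout and 0.854 CPM in floxed mice. Of the theca markers 2 were tested. Cyp11a1 averaged 0.0337 CPM in knockout and 3.88 CPM in floxed mice and was lower (edgeR adjusted p = 0.00245). Star went the other way, at 4.37 CPM in knockout and 2.65 CPM in floxed mice, and did not pass. The 1 endothelial marker tested, Pecam1, averaged 27.0 CPM in knockout and 150.4 CPM in floxed mice and was lower (adjusted p = 0.000487). Pecam1 was present in every oocyte, at 8.09 to 56.9 CPM in knockout and 78.6 to 210.9 CPM in floxed oocytes. The cell its reads came from was not tested. Of the 14 oocyte markers Figla was higher and Mos lower in knockout mice. The part of these cells in the SMAD results was not tested.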

How the data were processed

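Single oocytes were sequenced from poly(A)-primed full-length cDNA without unique molecular identifiers, and the kit does not mark strand. The authors deposited a table of counts per gene and oocyte that are not normalized. Per the submitters' processing notes, the tools include STAR and the build is mm10, and no source used here gives the counting tool. Counts entered as deposited: 61.5% of counts from 1 to 20 were even and the highest count was 8354. PCR copies are not independent molecules.

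Counts of the oocytes of a mouse were summed, giving 4 knockout and 4 floxed samples (1 to 8 oocytes each), since oocytes of 1 mouse are not independent. Oocytes of the same mouse were compared for copies of one library: the counts of all 150 such pairs differed by 5.39 to 28.2 times the counting variance. Genes were tested with edgeR 4.0.16 in R 4.3.3 (quasi-likelihood, robust, TMM, minimum count 10), with Benjamini-Hochberg adjusted p under 0.05, and mice varied by a biological coefficient of 35.4%. The test was checked on simulated data with less spread between mice than these data. The check therefore does not show how the test performs at the spread seen here. DESeq2 1.42.0 and limma 3.58.1 were alternatives. CPM per kilobase used the transcript length of the row's RefSeq accession for 16350 rows and of the symbol for 186. GENCODE M21 gave the 3′ UTRs, on the transcript strand; Smad5 overlaps an exon of Gm27301 on its strand and 9 of 5319 Smad9 stretches of 50 bases occur in other genes, so their reads may be shared. The members and lists were chosen with earlier results of these data known. Named were the members, the called genes of lowest p in each of the 5 lists (4 at most), granulosa markers at 1 CPM or more, and the 2 genes most like each member. One such gene and one motif copy are not reported here. Smad6 and Smad7 are not analysed here.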

Additional observations from a re-analysis of the deposited data

Results flagged for a closer look

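Samples that stood apart from the others of their group by Dixon's criterion were 4 of 46 groups of 4 mice and 2 of 42 groups of oocytes of 1 mouse. Chance flags about 1 in 20 such groups. Smad3 in knockout mouse 1, a single oocyte, had 296.2 CPM where the other knockout mice had 327.4 to 333.0 CPM. Tgfbr3 in knockout mouse 1 had 98.8 CPM where the other knockout mice had 145.9 to 147.4 CPM. Gdf11 in floxed mouse 1 had 0.952 CPM where the other floxed mice had 0.652 to 0.694 CPM. Zfp423 in floxed mouse 2 had 30.05 CPM where the other floxed mice had 24.2 to 24.8 CPM. Among single oocytes, Smad2 had 174.5 CPM in oocyte 5 of floxed mouse 1 where the other oocytes of that mouse had 209.8 to 211.6 CPM, and Smad9 had 11.5 CPM in oocyte 6 of floxed mouse 3 where the others had 1.80 to 5.13 CPM.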

How the results depend on the processing

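Smad9, Smad5 and Smad3 kept their direction and their call in all 14 alternative settings: the log2 difference of knockout from floxed ran from 2.65 to 2.92 for Smad9, from 1.30 to 1.63 for Smad5 and from 0.35 to 0.53 for Smad3, whose largest adjusted p was 0.0468. Smad2 (0.06 to 0.22) and Smad4 (0.03 to 0.44) passed in 0 of 14. Leaving out 1 mouse moved Smad1 between −0.45 and −0.18, and without mouse 1 of both genotypes it was −0.44. Smad1 passed in 2 of 14 settings, without knockout mouse 1 and without mouse 1 of both genotypes. The number of genes higher in knockout oocytes ran from 1359 to 2538 when 1 mouse was left out, and of genes lower from 1219 to 2822, with 3549 lower without mouse 1 of both genotypes. Pathway genes higher ran from 10 to 18 and lower from 5 to 15, with 17 lower without mouse 1 of both genotypes. Without knockout mouse 2 there were 10 higher and without knockout mouse 3, floxed mouse 2 or floxed mouse 4 there were 11. Without floxed mouse 1 there were 15 lower, and without floxed mouse 3 or 4 there were 5. Among named pathway genes, 217 results held and 21 were lost, in Bmp5, Tgfbr3, Twsg1 and Ltbp4. On mean log2(CPM + 1), Id1 had a log2 difference of 2.30, Gdf11 of 1.36, Bmper of 1.46 and Ltbp4 of 1.06. Each was smaller than from counts, and the cause was not tested. With the longest transcript as length, Smad1 had 9.03 CPM per kilobase in knockout and 10.3 in floxed mice. With the mouse number as a replicate block, the log2 differences were 2.81 for Smad9, 1.501 for Smad5, 0.47 for Smad3 and 0.26 for Smad4. No SMAD call changed, and edgeR's adjusted p for Smad4 was 0.0892 with the block and 0.558 without it. Deviations from the genotype means correlated across 9704 genes at 0.643, 0.038, 0.563 and 0.391 for mice 1 to 4, which is over 0.1 for 3 of 4 pairs and not for mouse 2. Knockout mouse 2 correlated best with floxed mouse 3 (0.224) and floxed mouse 4 with knockout mouse 3 (0.515), and numbers were not taken as pairs. The lowest Smad9 count, 2, was in a floxed oocyte with 1901439 counts in all. With counts drawn at random down to 3000000 per oocyte, all 23 floxed oocytes deep enough kept Smad9, with a lowest count of 5.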
